A study of Homo sapiens with 4 samples.

Results

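Genes that encode structural proteins of the microvillus and of the intestinal and renal brush border were followed in A549 cells and in the mesenchymal-like cells derived from them. The set is VIL1, PLS1, ESPN, EPS8, EZR, MYO1A, USH1C, MYO7B, CDHR2 and CDHR5, named by symbol, and all 10 were found among the 57820 Ensembl genes listed in the count files. The set was put together with results of the comparison of TD with A549 known, so the changes of these 10 genes are given as a description and carry no test. A549 is an established human lung adenocarcinoma cell line of epithelial morphology, and 2 libraries were made from the parental cells. The other 2 libraries came from TD, which is A549 maintained with the cytokine TGF-β, 2 ng/ml with 3 days between additions. The submitters describe TD as mesenchymal-like. Both groups grew in the same medium with 10% serum, and no added TGF-β is stated for the parental cells. TD is 1 derived line of 1 cancer line, the labels do not say whether it is clonal or how long it was kept on TGF-β, and they do not say whether the replicates were separate cultures. The p-values below therefore reflect no more than how these 4 libraries scatter, and that scatter may be technical.

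A microvillus is a finger-like membrane protrusion around a core of parallel actin filaments. Villin (VIL1), plastin 1 (PLS1, also called fimbrin) and espin (ESPN) bundle the filaments, EPS8 sits at the tips where filaments grow, ezrin (EZR) ties the actin core to the membrane, and myosin 1A (MYO1A) forms bridges between core and membrane along the shaft. In the brush border the protocadherins CDHR2 and CDHR5 link the tips of neighbouring microvilli, and harmonin (USH1C), myosin 7B (MYO7B) and ANKS4B bind their tails. Microvilli also cover the apical surface of alveolar type II cells, the cell type that A549 is often used to model. Epithelial cells that pass to a mesenchymal state are known to lose their apical surface.

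Libraries held 26729278 to 44133836 gene counts. Levels are CPM, gene counts scaled to a common library size with TMM factors. A count of 0 allows up to 3 counts, which is 0.0738 to 0.108 CPM depending on the library. Such limits and the counting intervals below cover counting error only. In the test of all genes (edgeR's quasi-likelihood test, adjusted p under 0.05), 3833 of 17785 genes rose in TD and 3809 fell. Marker genes of the labelled states were checked first. KRT8, a keratin of simple epithelia, fell from 9462 ± 350.2 to 1356 ± 162 CPM (SD, n = 2) and FN1, the matrix protein fibronectin, rose from 64.6 ± 1.09 to 611 ± 54.4 CPM. All 4 epithelial markers fell and all 4 mesenchymal markers rose, with the highest edgeR adjusted p, 0.000419, for VIM. Of 16 markers of other cell types that were matched, 15 had at most 7 counts in any library, among them the surfactant genes of alveolar type II cells, and CD3E and SFTPA1 were among those at 0 throughout. The exception was the macrophage marker CD68, with 41 to 61 counts. The summed level of these markers was 1.85 to 3.05 CPM in A549 and 1.99 to 2.62 CPM in TD. As in any bulk sample, fewer cells with microvilli and less RNA in each cell cannot be told apart.

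Of the 10 genes, 8 were lower in TD by at least 2-fold and passed the threshold of the test of all genes. The background is 21.4% of all tested genes called lower and 12.3% called and at least 2-fold lower, and nothing is read from the count, because the genes were chosen on this contrast. None was called higher (background 21.6%, or 9.49% at 2-fold or more). CDHR2 and CDHR5 were the 2 without a call. The loss ranged from near total for VIL1 and MYO1A to about 2-fold for EZR and EPS8. The summed level of the 10 genes was 1065 and 1054 CPM in the A549 libraries and 287 and 302 CPM in the TD libraries. EZR made up 42.1% to 43.6% of that sum in A549 and 75.8% to 76.3% in TD.

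**Figure D1:**
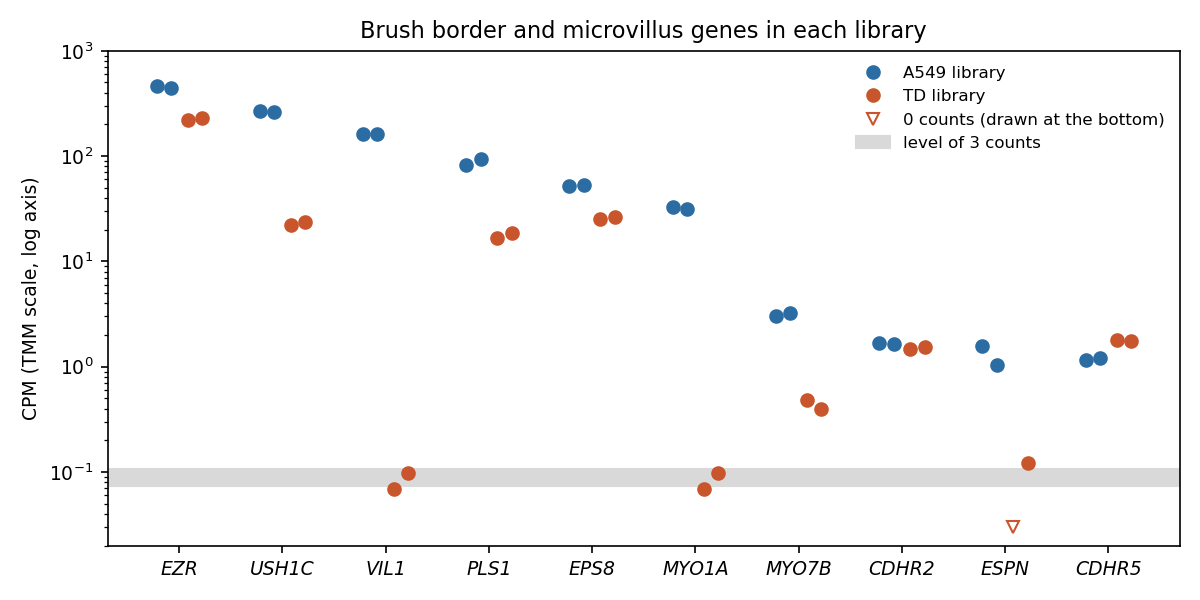
Level of each of the 10 genes in each library, in CPM on a log axis, ordered by the A549 mean. Blue points are the 2 A549 libraries and orange points the 2 TD libraries, the grey band is the level of 3 counts, and the open triangle is a count of 0. The TD points of VIL1 and MYO1A lie in or just below the band, from 0.0689 to 0.0984 CPM, while those of CDHR2 and CDHR5 lie beside the A549 points.

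Among the actin bundlers, villin stood farthest apart. VIL1 (ENSG00000127831) had 4479 and 4840 counts in the A549 libraries and 2 and 4 counts in the TD libraries, a level 1882-fold lower by summed counts (95% exact counting interval 864 to 5130). These TD counts are not 0, but they are close to the 3 counts that a count of 0 allows. VIL1 shares 3045 exon bases with USP37 on the opposite strand. Whether the few TD reads came from villin RNA was not tested. PLS1 (ENSG00000120756) had 81.6 and 93.2 CPM in A549 and 16.8 and 18.7 CPM in TD, a log2 ratio of -2.30 (SE 0.11). Both TD libraries were well below both A549 libraries, but the TD level still rested on 486 and 759 counts. ESPN (ENSG00000187017), one of the scarce genes of the set, had 44 and 31 counts in A549 and 0 and 5 counts in TD. Its level was 18.2-fold lower in TD by summed counts (95% interval 7.45 to 57.6), and the count of 0 allows up to 0.103 CPM in that library. ESPN is the one gene of the set whose call depended on the libraries and the model. It was not called without A549 replicate 1 (log2 ratio -3.95), without A549 replicate 2 (-4.53) or with the replicate number as a block (-4.30). The ESPN ratio was -3.36 without TD replicate 1 and -8.24 without TD replicate 2. EPS8 (ENSG00000151491), the capping and bundling protein of the tips, had 52.2 and 53.5 CPM in A549 and 25.3 and 26.5 CPM in TD, a log2 ratio of -1.03 (SE 0.07).

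The membrane linkers split in the same way into a near-complete and a partial loss. MYO1A (ENSG00000166866) had 924 and 938 counts in A549 and 2 and 4 in TD, the same TD counts as VIL1, and was 376-fold lower (95% counting interval 172 to 1026). EZR (ENSG00000092820) remained the most abundant of the 10 in TD, with 465 and 444 CPM in A549 and 219 and 229 CPM in TD. Its log2 ratio was -1.02 (SE 0.08), close to that of EPS8.

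Of the adhesion complex of the microvillus tips, the cytoplasmic parts in the set were lower and the protocadherins had no call. USH1C (ENSG00000006611), the scaffold of the complex, had 265 and 262 CPM in A549 and 22.1 and 23.8 CPM in TD, a log2 ratio of -3.52 (SE 0.09). It was the second most abundant of the set in both groups when levels were taken per length. MYO7B (ENSG00000169994), the motor that carries the complex, was scarce already in A549, at 3.05 and 3.24 CPM, and had 0.482 and 0.393 CPM in TD, a log2 ratio of -2.84 (SE 0.27). The TD value rested on 14 and 16 counts. CDHR2 (ENSG00000074276) had 1.69 and 1.65 CPM in A549 and 1.48 and 1.53 CPM in TD, a log2 ratio of -0.15 (SE 0.23). CDHR5 (ENSG00000099834) had 1.15 and 1.21 CPM in A549 and 1.79 and 1.75 CPM in TD, a log2 ratio of 0.58 (SE 0.24), the only one above 0. Both protocadherin genes had between 32 and 71 counts in every library, so the tip links were represented by little RNA in either group. The 2 groups did not overlap for either protocadherin gene, but with 2 libraries a group this happens readily without a change. How often it happened over all tested genes was not counted.

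Levels of different genes were compared as CPM per kilobase of merged annotated exons. In A549 the order ran from EZR (133 to 139 CPM per kilobase) through USH1C (53.4 to 54.0), VIL1 (23.3 to 23.6), PLS1 (15.4 to 17.6), MYO1A (7.12 to 7.48) and EPS8 (6.01 to 6.15) to MYO7B, CDHR2, CDHR5 and ESPN, all under 0.37. The ranges over the 2 libraries did not overlap for any neighbouring pair in that order except CDHR2 and CDHR5. On this scale the mean of EZR exceeded that of 98.5% of all tested genes and that of VIL1 exceeded 89.9%, whereas MYO7B, CDHR2, CDHR5 and ESPN lay above only 9.16% to 15.5% of tested genes. In TD, EZR led at 65.4 to 68.5 CPM per kilobase, followed by USH1C, PLS1 and EPS8, and CDHR5 and CDHR2 came next. VIL1 went from the third place in A549 to the ninth in TD, where it overlapped only ESPN, below it. MYO1A went from the fifth to the eighth place.

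The 250 bases before the start site are shown for 4 promoter windows, of genes that span the range from near-total loss to partial loss. RefSeq windows (GRCh38.p14) were at hand for 6 of the 10 genes, 12 windows in all, and those of VIL1, EPS8, ESPN and CDHR5 were missing. The count files use another build, hg19, so these positions hold for GRCh38 only, and which start site the cells use was not measured. In the sequences below, capitals mark matches on either strand to any of the following motifs: the E-box bound by SNAIL and ZEB factors, spelled CACCTG, the motif of intestinal CDX factors, spelled TTTATNG, the site of HNF4 factors, spelled CAAAGTCCA, the site of FOXA factors, spelled TGTTTAC, the site of GATA factors, spelled AGATAA, the TATA box, spelled TATAAA, and the GC box of widely expressed genes, spelled GGGCGG. The windows are chr12:57050130-57050379 on the minus strand for MYO1A, chr3:142623174-142623423 on the plus strand for PLS1, chr11:17544417-17544666 on the minus strand for USH1C and chr6:158818236-158818485 on the minus strand for EZR.
MYO1A: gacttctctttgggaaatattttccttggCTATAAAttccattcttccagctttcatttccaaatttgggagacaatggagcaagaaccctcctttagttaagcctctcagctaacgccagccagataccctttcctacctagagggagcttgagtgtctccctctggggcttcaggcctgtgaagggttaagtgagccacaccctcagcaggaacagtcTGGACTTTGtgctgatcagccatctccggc
PLS1: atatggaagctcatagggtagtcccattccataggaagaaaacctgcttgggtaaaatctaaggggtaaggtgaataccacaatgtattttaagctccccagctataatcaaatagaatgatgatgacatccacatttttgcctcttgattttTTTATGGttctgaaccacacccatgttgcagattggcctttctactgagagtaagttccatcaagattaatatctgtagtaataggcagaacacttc
USH1C: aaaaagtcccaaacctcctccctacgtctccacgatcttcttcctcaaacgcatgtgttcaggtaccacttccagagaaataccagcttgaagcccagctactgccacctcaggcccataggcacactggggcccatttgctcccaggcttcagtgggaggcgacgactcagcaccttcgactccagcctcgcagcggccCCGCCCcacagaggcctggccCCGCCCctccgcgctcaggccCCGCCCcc
EZR: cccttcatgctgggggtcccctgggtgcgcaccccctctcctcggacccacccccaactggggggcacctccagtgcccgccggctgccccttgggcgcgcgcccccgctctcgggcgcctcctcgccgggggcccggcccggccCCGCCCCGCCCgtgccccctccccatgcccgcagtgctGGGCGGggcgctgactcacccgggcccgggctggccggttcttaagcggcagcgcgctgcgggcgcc

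The MYO1A window held the HNF4 motif 30 bases before the start site, on the minus strand of the window, and this motif was found in 0.325% of all 35116 RefSeq windows. No other window of the set held it. The same MYO1A window had a CDX match that overlaps a match to the letters TATAAA 220 bases before the start site. These letters were found in 10.7% of all windows. CDX matches were found in 3 of the 12 windows, both of MYO1A and the PLS1 window shown, against 8.93% of all windows. The EZR and USH1C windows shown held GC boxes alone, 3 each, a motif found in 42.6% of all windows. The E-box was in the windows of CDHR2 and MYO7B (17.5% of all windows) and in none of EZR, USH1C, MYO1A or PLS1. GC content was 49.2% in the MYO1A window and 38.4% in the PLS1 window shown, with 2 and 0 CpG dinucleotides, against 63.2% and 13 for USH1C and 80.8% and 28 for EZR. The median over all windows was 58.0% and 11 CpG. Windows of the same gene also differed: another PLS1 window had 60.8% GC, 15 CpG and a GC box, and the other USH1C window had 53.2% GC, 5 CpG and no GC box. The contrast between PLS1 and USH1C therefore depends on the window. These matches describe the letters of the windows only. Of the 12 windows, none overlaps another of the same gene in position, but overlap among all 35116 windows was not counted.

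Each of these proteins has relatives, most of which are not specific to microvilli. They were listed by family, with results of this comparison known. ANKS4B was placed with the harmonin-type scaffolds, although it is itself a microvillus protein. Of 48 relatives listed, 47 were matched and 35 could be tested, of which 16 fell, 8 rose and 11 were not called. Some relatives, such as ANKS4B, MYO6, CDH23 and MYO10, are counted again in lists below, so the counts of the lists are not independent. Over all tested genes 21.4% fell and 21.6% rose, and these shares are the background for each list below. The relatives' median log2 ratio was -0.42, against -0.04 for all tested genes.

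**Figure D2:**
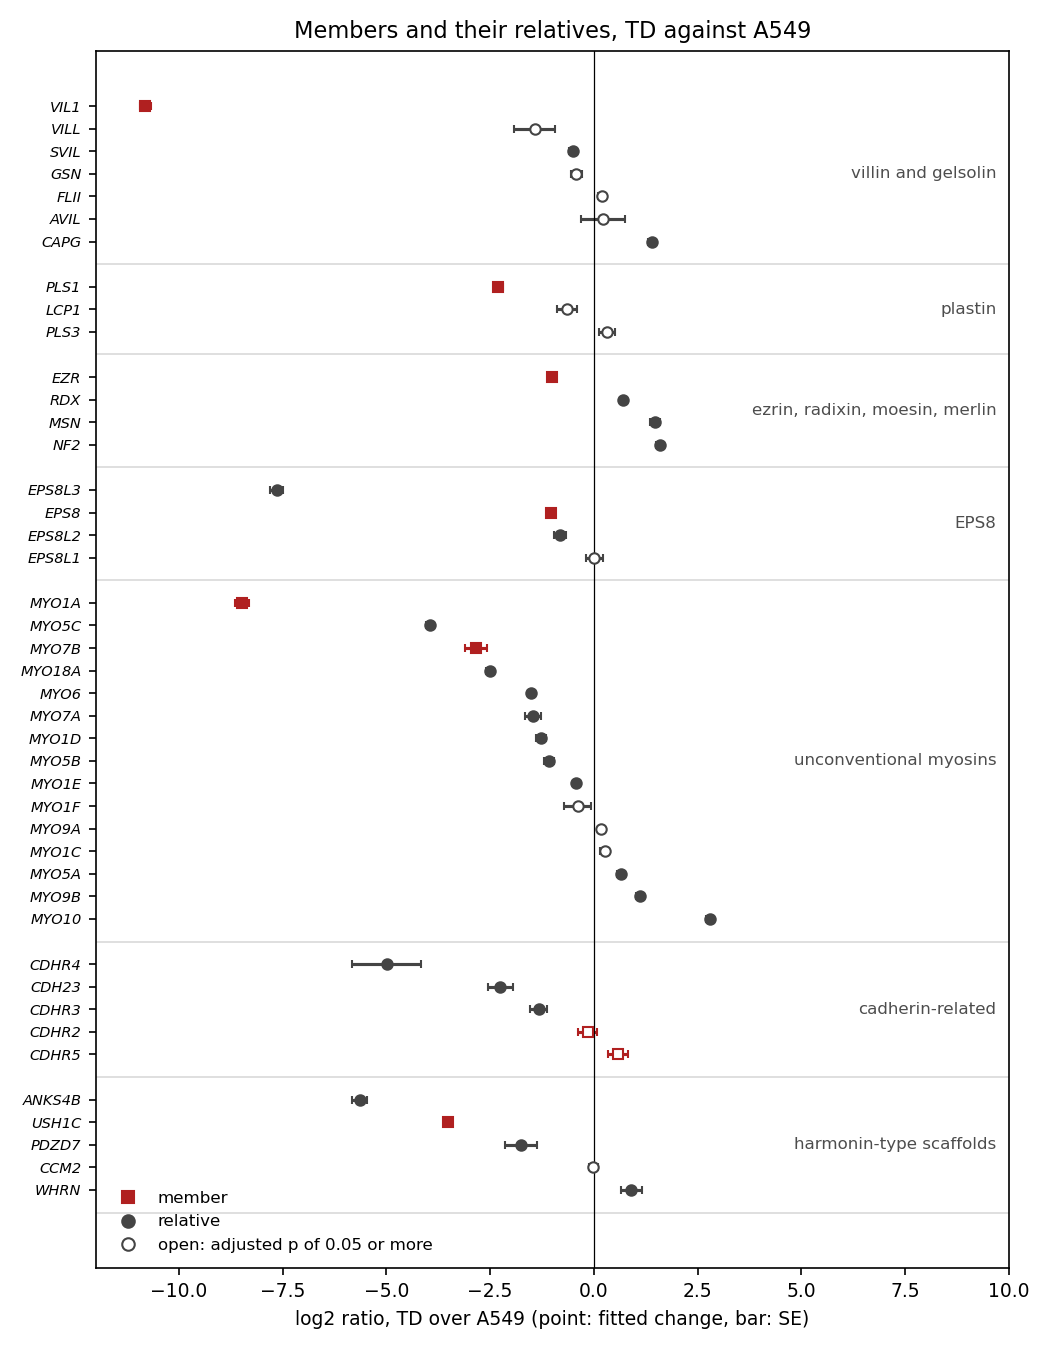
Fitted log2 ratio of TD over A549 for the 10 genes (red squares, ESPN apart, whose sole relative was not tested) and their tested relatives (dark circles), by family. Of the tested myosins, 1 is not drawn. Bars are standard errors and open symbols had an adjusted p of 0.05 or more. VIL1, PLS1 and EZR lie to the left of all relatives in their panels. EPS8L3 at -7.64 lies to the left of EPS8, and ANKS4B at -5.64, itself a microvillus protein, to the left of USH1C.

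In the ezrin, radixin and moesin family the relatives went the opposite way. MSN, moesin, the member that prevails in non-epithelial cells, had 448 and 452 CPM in A549 and 1149 and 1367 CPM in TD and rose by a log2 ratio of 1.48 (SE 0.12, edgeR adjusted p = 0.00081). RDX, radixin, rose from 258 ± 12.8 to 420.0 ± 12.1 CPM (0.70, SE 0.08, edgeR adjusted p = 0.0029), and NF2, the related tumour suppressor merlin, rose from 19.8 ± 1.02 to 59.6 ± 5.31 CPM (1.59, SE 0.10, edgeR adjusted p = 0.000387). Per kilobase, EZR held 55.4% to 57.2% of the summed level of the 3 linkers in A549 and 19.7% to 21.4% in TD. MSN held 30.8% to 31.6% in A549 and 62.9% to 65.8% in TD. The summed level was 240 to 243 CPM per kilobase in A549 and 306 to 348 in TD, so the sum was not lower in TD although ezrin was.

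Among the plastins, PLS3, the widely expressed form, was the main one in both groups, with 188 and 227 CPM in A549 and 216 and 301 CPM in TD. It was not called (log2 ratio 0.32, SE 0.19, edgeR adjusted p = 0.243), and was called only without TD replicate 1 (0.55, SE 0.11, adjusted p = 2.91e-06 by edgeR). LCP1, the leukocyte form, was near 1 to 2 CPM throughout and not called, but was called lower with pseudogenes left out (adjusted p = 0.0213), among protein-coding genes only (0.0231) and without TD replicate 1 (0.0272). The share of PLS1 in the family level per kilobase was 4.57% to 5.63% in TD, against 24.0% in A549 replicate 2 and a little more in A549 replicate 1.

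In the villin and gelsolin family, VIL1 held 33.6% to 35.9% of the level per kilobase in A549 and under 0.025% in TD. CAPG, a capping protein of this family that does not bundle filaments, rose from 12.8 ± 0.256 to 33.7 ± 2.92 CPM (log2 ratio 1.40, SE 0.10, edgeR adjusted p = 0.000546). SVIL, supervillin, fell from 40.9 ± 2.07 to 28.8 ± 2.24 CPM (-0.51, SE 0.09, edgeR adjusted p = 0.0117), a call that did not hold when A549 replicate 1 (adjusted p = 0.0949) or 2 (0.0695) was left out. GSN, VILL, AVIL and FLII were not called in the main analysis, and SCIN, with at most 4 counts in any library, was not tested. GSN, gelsolin (log2 ratio -0.42, edgeR adjusted p = 0.0744), was called lower in 8 of the 14 alternative analyses, among them DESeq2 (0.0121) and library totals (0.0199), so its lack of a call depended on the setting. VILL, the villin-like gene, had 18 and 14 counts in A549 and 7 in each TD library. VILL was called lower with pseudogenes left out (adjusted p = 0.0114), among protein-coding genes only (0.0132) and without TD replicate 1 (0.0158), where FLII was called higher (0.017).

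In the EPS8 family a relative had a larger fall than the difference of the microvillus gene. EPS8L3 had 1003 and 1005 counts in A549 and 4 and 8 in TD, a log2 ratio of -7.64 (SE 0.16, edgeR adjusted p = 3.20e-05). EPS8L2, the most abundant of the 4 per kilobase, fell from 128 ± 21.9 to 72.8 ± 6.06 CPM (-0.82, SE 0.14, edgeR adjusted p = 0.00987), and EPS8L1 was not called, at 5.34 and 5.36 CPM (adjusted p = 0.98). The share of EPS8 itself was 14.1% to 16.7% in A549 and 17.1% to 18.4% in TD, while that of EPS8L3 was 24.3% to 26.5% and 0.25% to 0.318%. The family sum per kilobase was 36.8 to 42.6 in A549 and 15.8 to 17.8 in TD.

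**Figure D3:**
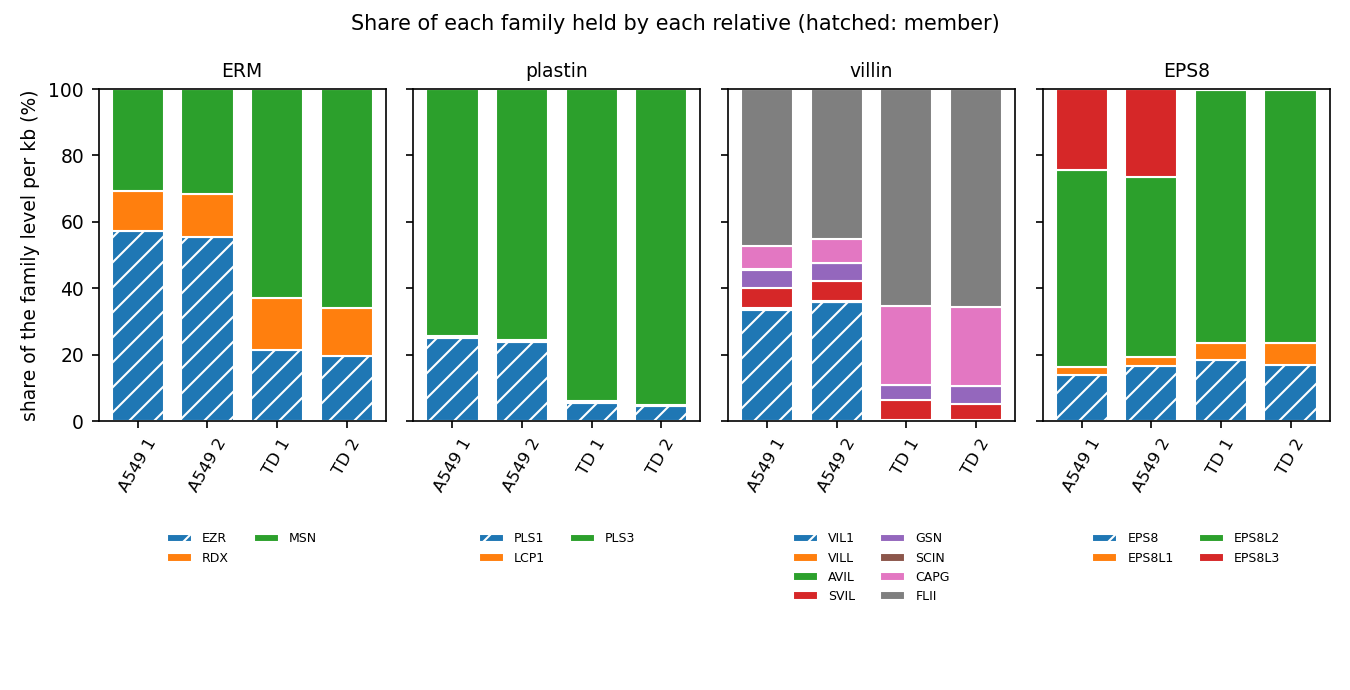
Share of the summed level per kilobase that each relative held in each library, in percent, for 4 families. Hatched segments are EZR, PLS1, VIL1 and EPS8. The EZR segment is 55.4% to 57.2% in the A549 libraries and 19.7% to 21.4% in the TD libraries, the VIL1 segment is too thin to see in TD, and the EPS8 segment is 14.1% to 18.4% throughout.

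Of 21 matched myosin relatives outside the set, 14 were tested, of which 8 fell and 3 rose. MYO5C, a motor of epithelial secretory vesicles, fell from 43.0 ± 0.422 to 2.78 ± 0.169 CPM (log2 ratio -3.95, SE 0.10, edgeR adjusted p = 3.76e-05), and MYO18A fell from 141 ± 6.86 to 24.8 ± 1.25 CPM. MYO6, a motor at the base of microvilli, fell by 1.51 on the log2 scale, and MYO7A, the sister gene of MYO7B that serves hair cells, fell by 1.46. MYO5B, MYO1D and MYO1E fell by less, by 1.08, 1.28 and 0.42. The 3 that rose were MYO10, the motor of filopodia, from 124 ± 0.623 to 860 ± 24.5 CPM (2.79, SE 0.08, edgeR adjusted p = 5.68e-05), MYO9B (1.11) and MYO5A (0.65). MYO1C, MYO9A and MYO1F were not called, although MYO1C was called higher by DESeq2 (adjusted p = 0.0287), with pseudogenes left out (0.0486), among protein-coding genes only (0.0274) and without TD replicate 1 (0.000928). MYO1E was no longer called when A549 replicate 2 was left out (adjusted p = 0.0504). MYO1A held 6.49% to 7.26% of the class I myosin level per kilobase in A549 and under 0.03% in TD.

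The 3 tested cadherin-related relatives fell. CDHR3 fell from 6.47 ± 0.194 to 2.58 ± 0.489 CPM (log2 ratio -1.33, SE 0.20, edgeR adjusted p = 0.00648), CDH23, a tip link protein of hair cells, fell by 2.26 on the log2 scale, and CDHR4 had 33 and 25 counts in A549 and 0 and 2 in TD. By counts, the ratio of CDHR4 was 35.1-fold (95% interval 9.30 to 297). The calls of CDHR3 and CDHR4 were lost without A549 replicate 1 (adjusted p = 0.0668 and 0.102) or 2 (0.0608 and 0.0761), and that of CDHR4 also with the replicate block (0.0501). Of the scaffolds, PDZD7 fell from 1.19 to 0.349 CPM and WHRN, whirlin, rose from 1.17 to 2.19 CPM. Neither was called with A549 replicate 1 left out (adjusted p = 0.157 and 0.121) or 2 (0.0771 and 0.195), or with the replicate block (0.0557 and 0.0957). WHRN was also not called by DESeq2 (0.0917), with library totals (0.0663) or with no filter (0.0707). CCM2 was at 39.7 and 39.5 CPM and not called (adjusted p = 0.963).

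Among other structural and docking proteins of the apical surface, more fell than rose. This list and those below were chosen with earlier results of these data known, so their counts are a description only. Of 30 such genes, 27 were tested, of which 15 fell, 5 rose and 7 were not called (background 21.4% lower and 21.6% higher), with a median log2 ratio of -0.55. ANKS4B, the third cytoplasmic part of the tip adhesion complex, had 30.0 and 31.4 CPM in A549 and 0.482 and 0.713 CPM in TD (-5.64, SE 0.18, edgeR adjusted p = 6.49e-05). SHROOM3, an organiser of apical actin, fell from 36.7 ± 0.656 to 0.979 ± 0.0285 CPM (-5.23, SE 0.10), and COBL, an actin nucleator needed for brush borders, fell from 37.6 ± 0.394 to 1.40 ± 0.0253 CPM (-4.75, SE 0.10). PDZK1, an apical docking protein, fell from 7.10 ± 0.491 to 0.374 ± 0.00722 CPM (-4.23, SE 0.21). CALML4, a light chain known to serve MYO7B, was not called (adjusted p = 0.122 by edgeR). The 4 largest rises were PODXL, a sialomucin that binds ezrin through a docking protein, from 11.1 ± 0.408 to 271 ± 10.3 CPM (4.61, SE 0.09, edgeR adjusted p = 3.08e-05), SHROOM2 (2.35), STK10 (1.78) and STX3 (0.87). STK10 is a kinase that phosphorylates ezrin, radixin and moesin. SLK and STK26, other kinase genes of this list, fell (log2 ratio -0.58 and -0.85, edgeR adjusted p = 0.00728 and 0.00259). SHROOM2, at 0.413 and 2.13 CPM, was not called when A549 replicate 1 was left out (adjusted p = 0.0638).

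Enzymes and transporters that mark mature brush borders were mostly at background in both groups. Of 26 listed, 17 had too few counts to be tested, at most 18 in any library, and of the 9 tested 4 fell and 2 rose (background 21.4% and 21.6%). ANPEP, the peptidase aminopeptidase N, had 3.16 and 2.33 CPM in A549 and 138 and 153 CPM in TD, a rise of 5.73 on the log2 scale (SE 0.17, edgeR adjusted p = 5.41e-05). GGT1, gamma-glutamyltransferase, fell from 188 ± 12.4 to 48.7 ± 5.35 CPM (-1.95, SE 0.11, edgeR adjusted p = 0.000295), with the reserve that near-identical copies of the gene exist. The other calls rested on few counts. ALPI, intestinal alkaline phosphatase, had 28 and 35 counts in A549 and 0 in TD, at least 25.5-fold lower with 3 counts set over the group, MME had 0 counts in A549 and 14 and 29 in TD, at least 11.8-fold higher, MGAM fell from 3.13 to 0.128 CPM, and ENPEP, starting at 2.21 CPM, fell to 0.652 CPM. ALPI, MME, MGAM and ENPEP were not called with A549 replicate 1 left out (adjusted p = 0.0647, 0.0515, 0.0504 and 0.0597) or 2 (0.0741, 0.0514, 0.0606 and 0.0576), which left 1 gene lower and 1 higher. MME was also not called with the replicate block (adjusted p = 0.0646).

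Stereocilia of hair cells hold relatives of the proteins of the set, among others. Genes of the set itself were left out of the stereocilia list. Of its 24 genes, 9 were tested, of which 5 fell (background 21.4%) and 2 rose, the latter near the background of 21.6%. The median log2 ratio was -1.13. Besides CDH23, MYO7A, PDZD7 and WHRN, the actin-binding gene TRIOBP fell from 15.2 ± 0.349 to 6.91 ± 1.05 CPM (-1.13, SE 0.14, edgeR adjusted p = 0.00342), and TWF2, a twinfilin, rose from 12.9 ± 0.460 to 29.2 ± 4.10 CPM (1.18, SE 0.12, edgeR adjusted p = 0.00207). Without either A549 library 3 fell and 1 rose.

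Among actin genes of other protrusions and of stress fibres, a list also chosen with earlier results known, more rose than fell. Of 28, 27 were tested, 16 rose and 2 fell (background 21.6% and 21.4%), with a median log2 ratio of 0.50. PALLD, palladin of stress fibres, rose from 43.3 ± 1.54 to 458 ± 34.6 CPM (3.40, SE 0.10, edgeR adjusted p = 5.29e-05), and MYO10 is given above. FMNL3, a formin, rose from 3.83 ± 0.0743 to 18.9 ± 1.18 CPM (2.30, SE 0.11), and ACTN1, the actin crosslinker alpha-actinin 1, from 355 ± 10.6 to 1001 ± 112 CPM (1.49, SE 0.11). The 2 that fell were FLNC, with 28 and 27 counts in A549 and 3 and 6 in TD, and BAIAP2, which codes for the membrane-bending protein IRSp53, from 12.8 ± 0.554 to 7.80 ± 0.280 CPM. With A549 replicate 1 left out neither was called (adjusted p = 0.0814 and 0.0547), and with A549 replicate 2 left out FLNC was not (0.070). The number that rose was 9 without A549 replicate 1 and 8 without A549 replicate 2, and the number that fell was 0 and 1.

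Transcription factors known for control of intestinal or actin genes were listed too. Of 17 listed, 16 were matched and 13 tested. Of these 6 fell (background 21.4%) and 3 rose, the latter near the background of 21.6%. The median log2 ratio was -0.71. ELF3, a factor of epithelial differentiation, fell from 146 ± 1.23 to 0.711 ± 0.177 CPM (-7.64, SE 0.16, edgeR adjusted p = 3.08e-05), KLF5 from 114 ± 6.01 to 20.9 ± 2.05 CPM (-2.44, SE 0.10), and KLF4 from 13.1 ± 0.0226 to 4.04 ± 0.589 CPM (-1.70, SE 0.15). HNF4G fell by 1.70 (SE 0.29), but was not called with A549 replicate 1 (adjusted p = 0.0708) or 2 (0.0589) left out. HNF4A, named after its values were seen, fell from 214 to 77.0 CPM. CDX2, known as an activator of villin in the intestine, had 9 to 15 counts in every library and was not called (adjusted p = 0.323), and CDX1 was not tested. The 3 that rose were MRTFA, a coactivator of SRF (1.43, SE 0.11, edgeR adjusted p = 0.000838), SRF itself (0.78, SE 0.13) and TEAD1 (0.47, SE 0.08). With A549 replicate 2 left out SRF was not called (adjusted p = 0.0543), and TEAD1 was not with A549 replicate 1 left out (0.0608).

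**Figure D4:**
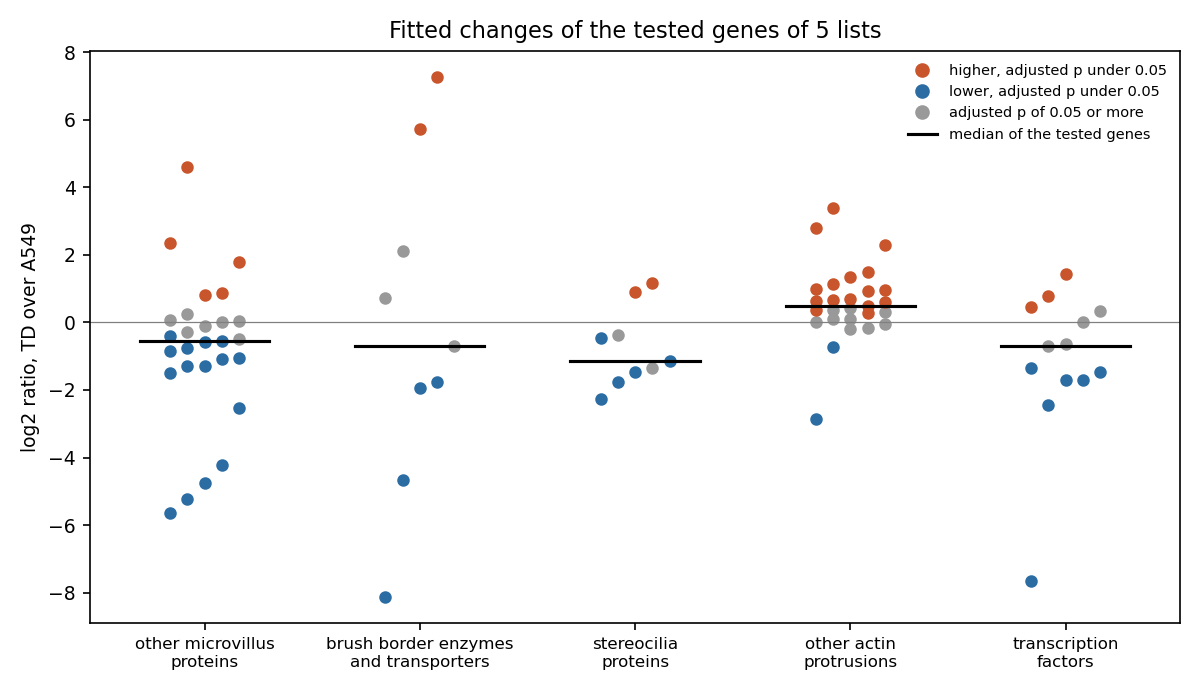
Fitted log2 ratio of TD over A549 for the tested genes of 5 lists, 1 point a gene. Orange points rose, blue points fell and grey points had an adjusted p of 0.05 or more, and the bar is the median of the tested genes. The medians are -0.55 for other microvillus proteins and 0.50 for actin genes of other protrusions.

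The genes whose levels over the 4 libraries lay nearest to those of VIL1, by Euclidean distance in log2(CPM + 0.5), were FGA (distance 0.13), EPCAM (0.28), UPK1B (0.40), S100P (0.88) and DEFB1 (1.12). With 2 groups of 2 libraries this likeness says little more than that each of the 5 has a similar level in A549 and next to none in TD. FGA, the fibrinogen alpha chain, had 9321 summed counts in A549, against 9319 for VIL1, and 2 and 5 counts in the TD libraries. UPK1B, a uroplakin of the urothelial surface, had 11239 in A549 and 2 and 6 counts in TD.

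The nearest tested protein-coding gene on either side of each of the 10, in the order of GENCODE 29, gave 20 genes, of which 5 were called lower and 5 higher, near the shares over all tested genes (21.4% and 21.6%). USP37 runs against VIL1 and shares 3045 exon bases with it, and had 458 and 568 counts in A549 and 467 and 628 in TD. TNFRSF25 runs against ESPN, shares 383 exon bases with it and had 43 and 32 counts in A549 and 261 and 340 in TD. GPRIN1 shares 173 exon bases with CDHR2 on the opposite strand and TAC3 shares 112 with MYO1A on the same strand. The libraries keep strand, but the strand setting of the counting is unknown here, so the counts of these pairs are uncertain to that extent.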

How the data were processed

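Polyadenylated RNA was sequenced from both ends as strand-specific libraries (labels' protocols). The authors deposited 1 file of raw counts per Ensembl gene for each library, made with FastQC 0.11.8, STAR 2.7.1a and HTSeq 0.11.2 on hg19, per the submitters' processing notes. Not given in the sources used here are read filters, the gene annotation and whether counting used strand. Reads without a gene (6.12% to 7.79%), in more than 1 gene (2.34% to 2.56%) or with more than 1 alignment (8.08% to 9.22%) were kept out of totals and tests. Of 57820 identifiers, 51996 matched a symbol. MYO19 and PECAM1 were among the listed genes not matched. Gene types, exon lengths and gene order came from GENCODE 29, which is on GRCh38, so lengths may differ from those of the counting.

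TD was compared with A549 by the quasi-likelihood test of edgeR 4.0.16 (R 4.3.3) on all counts, with TMM scaling, the default filter (minimum count 10) and Benjamini-Hochberg adjustment over all tested genes, without a replicate block. The fit was tested on simulated data. SE is the fitted log2 ratio over the square root of F. Ratios by counts use effective library sizes with exact 95% binomial intervals, and 3 counts over the group stand for 0. The 10 genes and all lists were chosen with earlier results of these data known. The text names the 10, all their relatives, the 4 called genes with the largest rise and fall in each list, 8 marker genes and the 5 genes nearest to VIL1, and any other gene was named after its values were seen. A few genes that the rule takes are counted in their lists but not reported here by name. Alternatives were other scalings, DESeq2 1.42.0, limma-voom (limma 3.58.1), other filters, gene types, a replicate block and each library left out.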

Additional observations from a re-analysis of the deposited data

How the results depend on the processing

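None of the 10 genes changed sign in any of 136 values over 14 alternatives (4 of the 10 were not tested with the filter of 5 CPM). The number called lower was 8 in the main analysis, 6 of the 6 tested with that filter, 7 with the replicate number as a block, and 7 to 8 with 1 library left out. None of the other named genes reversed: of 1020 values, 34 lost a call, 27 of them without an A549 library, and 20 gained one. The common coefficient of variation was 20.1%, and 7.90% with pseudogenes left out. With 1 library left out, its partner is assumed to vary like the other group, and the cause of the changes below was not tested.

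For all genes, 2114 to 5329 were higher and 2236 to 6140 lower with 1 library left out, the lowest counts without an A549 library and the highest without TD replicate 1. For enzymes and transporters, 1 to 3 were higher and 1 to 6 lower. For stereocilia genes, 1 to 2 were higher and 3 to 7 lower. For actin genes of other protrusions, 8 to 18 were higher and 0 to 4 lower. With the filter of 5 CPM, fewer genes were tested, and 1 enzyme was higher and 1 lower, and 1 stereocilia gene was higher and 3 lower. With no filter, 1 stereocilia gene was higher and 8 lower. With library totals, 1 stereocilia gene was higher and 4 actin genes were lower. With DESeq2, 1 stereocilia gene was higher.

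With the replicate number as a block, 1 enzyme was higher, 1 stereocilia gene was higher and 3 were lower, and over all genes 2964 were higher and 2847 lower. Both groups use the same replicate numbers, and the labels do not say what a number marks. Deviations of same-numbered libraries from their group means correlated at -0.0787. This single value cannot settle whether those libraries were paired. Depth limits VIL1, MYO1A and ESPN in TD, which had 6, 6 and 5 counts.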
